A study of Mus musculus with 71 samples.

Results

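The globin genes and the genes that drive primitive red cell formation were followed in mouse embryos carrying 8 alleles of the miR-17-92 microRNA cluster. The 10 genes were taken by name: the embryonic β-like globins Hbb-bh1 and Hbb-y, the adult β-globin Hbb-bs, the embryonic α-like globin Hba-x, the adult α-globins Hba-a1 and Hba-a2, the regulators Gata1 and Klf1, the haem enzyme gene Alas2 and the erythropoietin receptor gene Epor. All 10 were found among the 37620 genes of the count table, and all 10 passed the filter on low counts in each tissue. Hbb-bt, which is nearly identical to Hbb-bs, is given beside it. On the GRCm38 build, GENCODE places Hbb-bt, Hbb-bs, Hbb-bh1 and Hbb-y in 1 cluster on the minus strand of chromosome 7, from base 103812524 to base 103853216. Hba-x, Hba-a1 and Hba-a2 lie on the plus strand of chromosome 11, from base 32276400 to base 32297298. Gata1 and Alas2 lie on chromosome X, Klf1 on chromosome 8 and Epor on chromosome 9.

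The 71 RNA-seq libraries came from C57BL/6 embryos of 20 to 22 somites, collected at embryonic day 9.5. Full-KO embryos lacked the whole cluster. Delta_17_18 embryos lacked miR-17 with miR-20a and also miR-18a, and Delta_17_18_92 embryos lacked miR-92a-1 besides these. Delta_17 embryos lacked miR-17 and miR-20a, Delta_18 embryos lacked miR-18a, Delta_19 embryos lacked miR-19a and miR-19b-1, and Delta_92 embryos lacked miR-92a-1. Wild-type embryos carried the intact locus. Tail buds and hearts were microdissected and the remaining embryo was kept, which gave 24 groups of 3 libraries, except the remaining embryo of Delta_17_18_92 with 2. Whether any library pooled several embryos, and whether the deletions were made in the germ line or by a tissue-restricted Cre, is not given in the sources used here.

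Primitive red cells arise in the yolk sac and enter the embryo with the first heartbeats, so at this stage blood reaches every dissected tissue. They make haemoglobin mostly from embryonic globins, and adult globins take over later, when definitive red cells form. GATA1 and KLF1 are DNA-binding factors required for the erythroid programme, ALAS2 starts haem synthesis, and erythropoietin signals through its receptor for red cell survival. How much blood a dissected piece carries differs from embryo to embryo, so the genes were read both as levels and at equal content of other red cell genes.

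The microRNAs deleted in these alleles fall into 4 seed families, and they are shown because the partial deletions remove them by family. The mature sequences are from RefSeq on build GRCm38.p6, all from the plus strand of chromosome 14, with the seed, bases 2 to 8, in capitals.
mmu-miR-17-5p: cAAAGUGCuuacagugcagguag
mmu-miR-18a-5p: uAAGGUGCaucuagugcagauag
mmu-miR-19a-3p: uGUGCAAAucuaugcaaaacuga
mmu-miR-20a-5p: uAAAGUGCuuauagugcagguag
mmu-miR-19b-3p: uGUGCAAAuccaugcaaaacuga
mmu-miR-92a-3p: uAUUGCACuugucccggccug
miR-17 and miR-20a share the seed AAAGUGC, and miR-19a and miR-19b share GUGCAAA. The longest annotated 3′ untranslated regions of the 10 genes and Hbb-bt, 74 to 497 bases long, held 0 matches to bases 2 to 8 of any of the 4 families. That is a description of these letters only.

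A few libraries stood apart from the rest. Library totals ran from 13532012 to 27477273 counts. The heart library Delta_17_18 replicate 2 had 15.7% of its counts in its 10 most abundant genes, against 5.1% to 8.5% in the other hearts. In the tail bud library Wild-type replicate 3, Hbb-bh1 over Hbb-y was 1.10, against 0.69 to 0.909 in the other tail buds. The α-like counts (Hba-x, Hba-a1 and Hba-a2) over the β-like counts were 0.31 there, against 0.47 to 0.571. Summed CPM of 4 Y-linked genes was at least 217.9 or at most 2.3 in every library, and libraries that share a genotype and number fell on the same side in all 24 sets. Y-linked reads were present in all 3 sets of Full-KO, 2 of Delta_17_18_92, 1 of Delta_17_18, 2 of Delta_17, 1 of Delta_18, 1 of Delta_19, 0 of Delta_92 and 2 of Wild-type. Cardiomyocyte markers were higher in heart than in the remaining embryo for 8 of 8 genes, and tail bud markers higher in tail bud for 8 of 8. The host transcript Mir17hg ran from 136 to 458 CPM in Full-KO and from 38.5 to 160 CPM in Wild-type, but its row does not separate the deleted stretch, so it checks no label.

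The embryonic globins were by far the most abundant members per kilobase of transcript. In Wild-type tail buds Hbb-y stood at 2562 ± 605.7 CPM per kb, Hbb-bh1 at 2476 ± 624.6 and Hba-x at 1408 ± 376.8 (SD, n = 3). Hba-a1 followed at 57.5 ± 9.61, Hba-a2 at 28.5 ± 6.13 and Alas2 at 18.1 ± 5.16. Hbb-bs, Epor, Klf1 and Gata1 lay together between 3.83 and 5.74, and Hbb-bt was lowest at 2.03 ± 0.83. Hbb-y and Hbb-bh1 did not differ beyond their spread, nor did neighbours among Hbb-bs, Epor, Klf1 and Gata1.

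The order of the first 6 genes was the same in all 3 Wild-type tissues. In Wild-type hearts Hbb-y stood at 1081 ± 584.9 CPM per kb and Hba-x at 669.7 ± 354.9, and in the remaining embryo at 1617 ± 413.5 and 968.3 ± 271.9 (SD, n = 3). Of the 50-base windows of the Hbb-bs transcript 65.8% also occur in Hbb-bt, and of those of Hba-a2 86.9% occur in Hba-a1. How multi-mapping reads were counted is not given in the sources used here, so the split within each of these pairs is uncertain, while Hbb-bh1, Hbb-y and Hba-x shared no window.

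**Figure D1:**
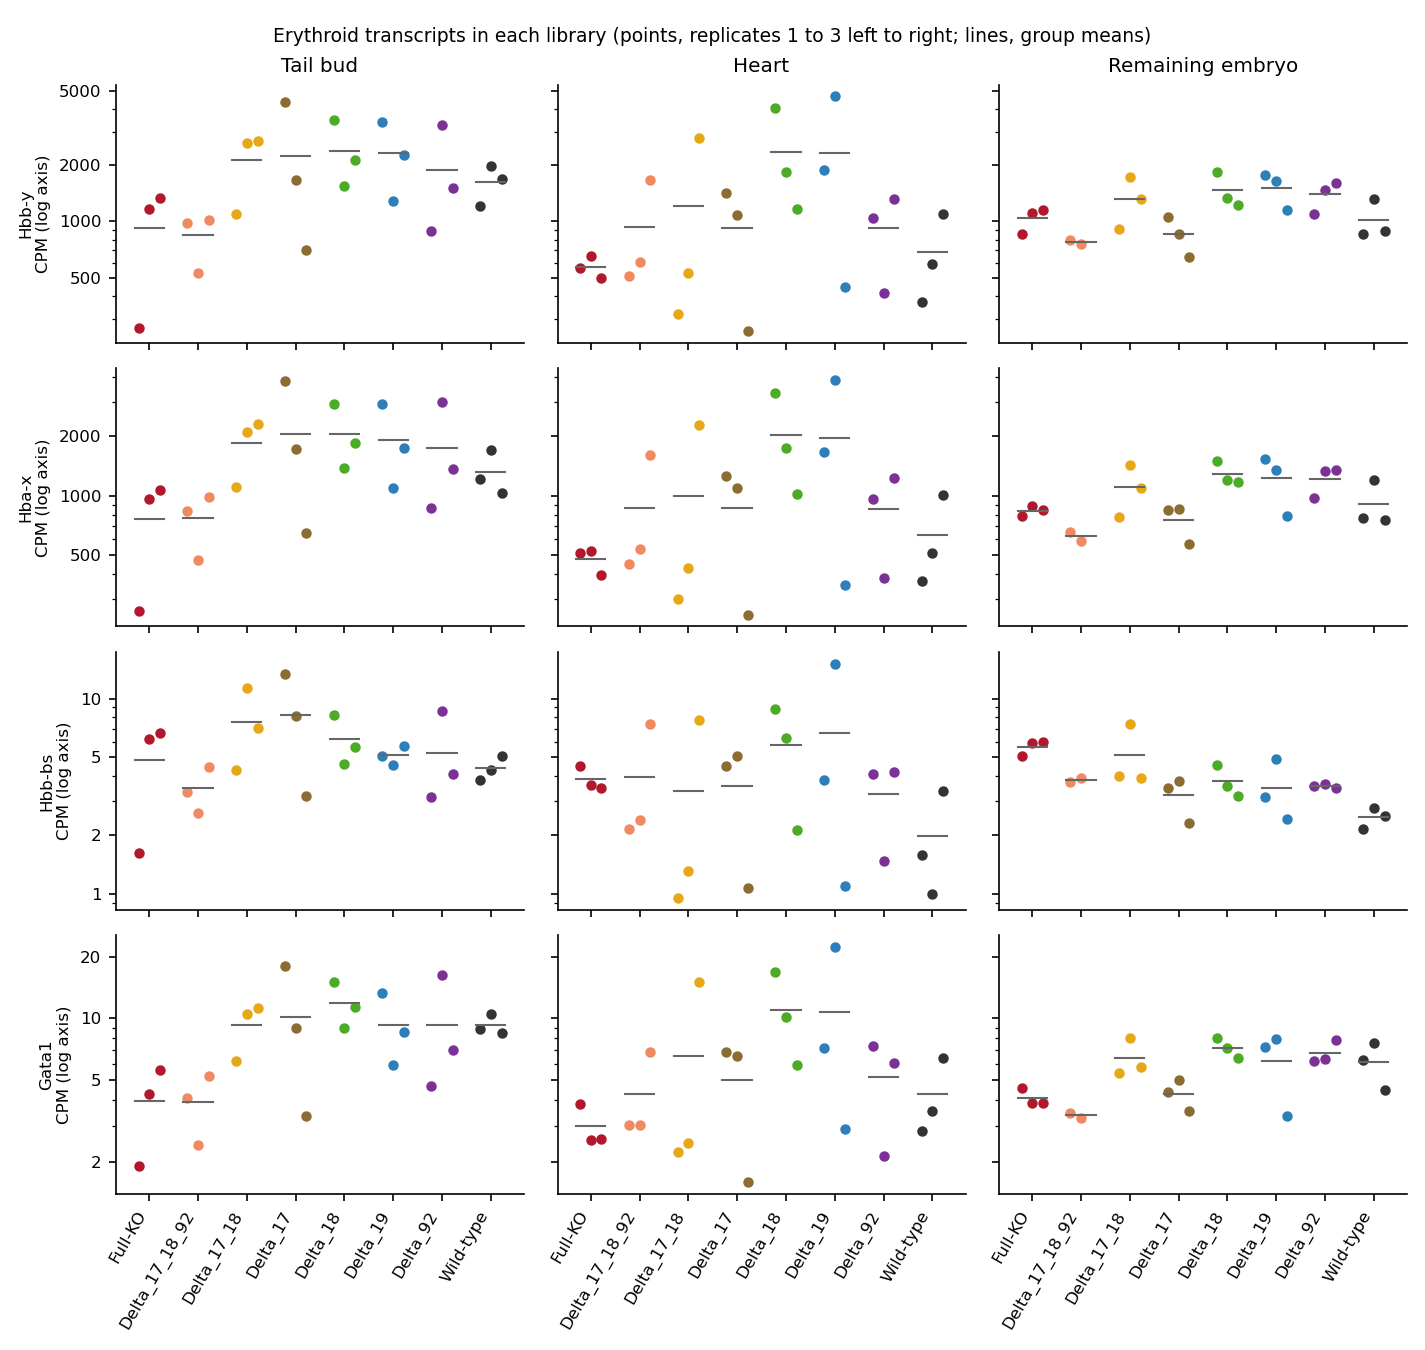
Levels of Hbb-y, Hba-x, Hbb-bs and Gata1 in each library (CPM on a log axis), by genotype and tissue, each point 1 library and each line a group mean. In the Delta_17_18 hearts Hbb-y spans 318 to 2788 CPM, and in the remaining embryo every Full-KO point of Hbb-bs lies above every Wild-type point.

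Globin content varied widely between replicate libraries of tail bud and heart. The globin genes held 0.0788% to 1.21% of all counts in tail buds, 0.0654% to 1.15% in hearts and 0.195% to 0.52% in the remaining embryo. That is a 15.4-fold, a 17.6-fold and a 2.67-fold range. The spread lay within single groups too. Hbb-y had 318, 529 and 2788 CPM in the 3 Delta_17_18 hearts, and 4355, 1661 and 702.6 CPM in the 3 Delta_17 tail buds. These are bulk samples, in which fewer red cells and less RNA per red cell cannot be told apart.

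A blood index was therefore formed for each library as the mean log2 CPM of 12 red cell genes outside the 10 members, among them the anion exchanger Slc4a1 and the blood group gene Kel. It ran from 1.27 to 4.52 in tail buds, 1.22 to 4.59 in hearts and 2.26 to 3.44 in the remaining embryo. With genotype in the same fit, the members rose with the index by 0.70 to 1.25 log2 units per unit. All 10 slopes passed the threshold in tail bud, where 3.51% of all genes passed, and in heart, where 1.24% did. Among the remaining-embryo libraries 9 passed, with 0.325% of all genes, and Klf1 had a slope of 0.70 ± 0.17 (edgeR adjusted p = 0.0722). Epor had the lowest slope in heart, 0.71 ± 0.04, and Hbb-bs the highest, 1.25 ± 0.06.

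The genes whose levels ran most like the members included several of the red cell membrane. The measure was the correlation with the mean of Hbb-bh1, Hbb-y, Hba-x, Gata1, Klf1, Alas2 and Epor, on deviations from group means in 71 libraries, averaged over the 3 tissues, among 13263 genes. Among the first 10 were Slc4a1 at 0.985, Ermap at 0.967, Epb42 at 0.966, the mitochondrial iron carrier Slc25a37 at 0.963 and the ankyrin Ank1 at 0.963. The metal transporter Slc30a10 at 0.961, Kel at 0.955 and the elongation factor Ell2 at 0.953 were also among them. Slc4a1, Ermap, Epb42 and Kel are also in the index. Among the members outside that mean, Hba-a1 reached 0.982, Hba-a2 0.946 and Hbb-bs 0.87, and all these points share library and depth.

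**Figure D2:**
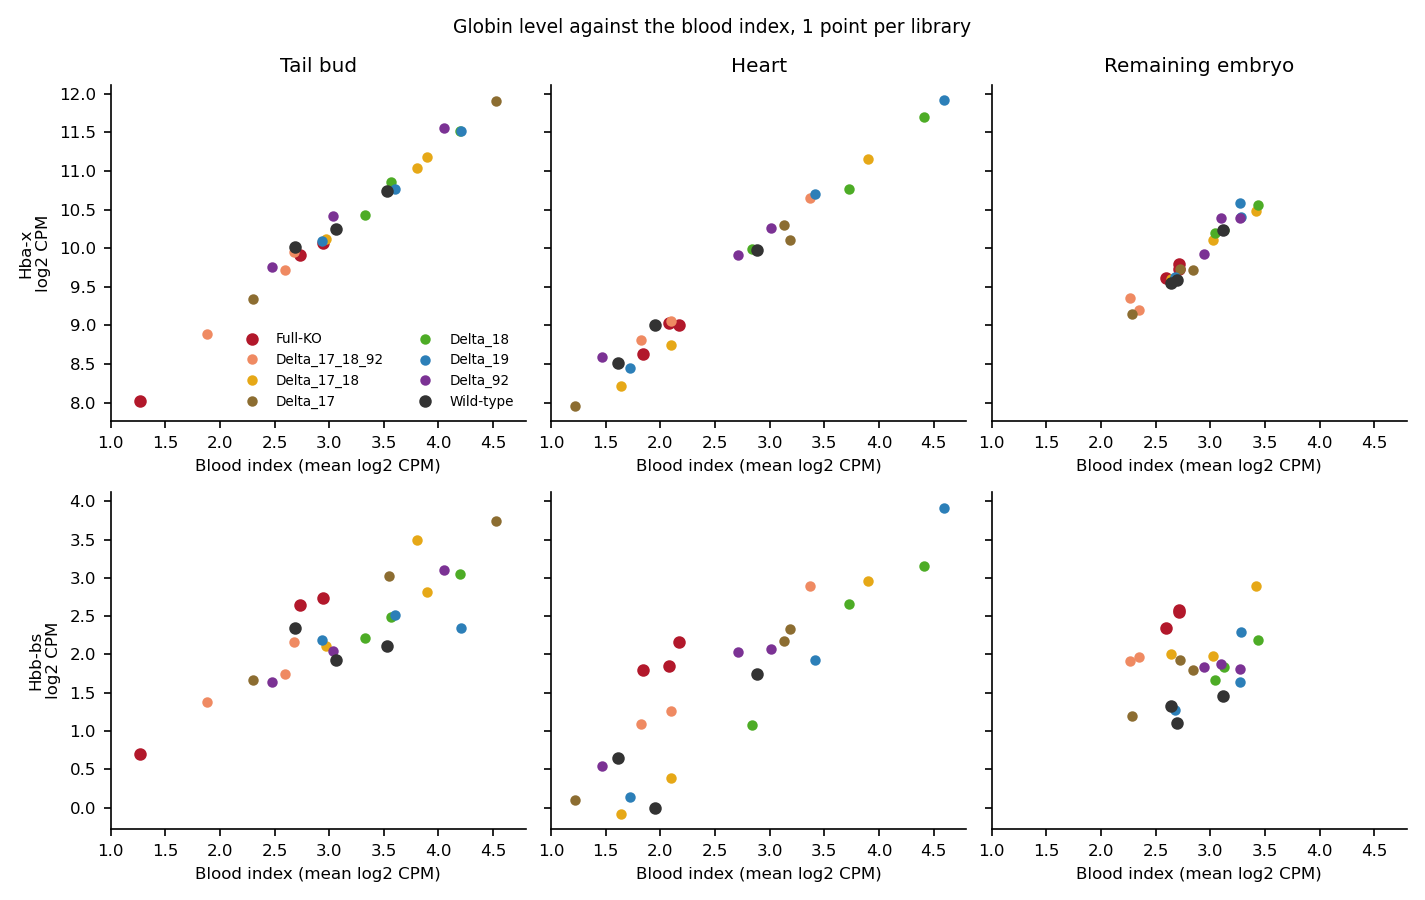
Hba-x and Hbb-bs levels (log2 CPM) against the blood index (mean log2 CPM of 12 red cell genes), each point 1 library coloured by genotype, by tissue. The Hba-x points rise with the index in all genotypes, the Full-KO points of Hbb-bs in heart and the remaining embryo lie above the Wild-type points of similar index, and the index spans 2.26 to 3.44 in the remaining embryo.

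Most members stood higher in tail bud than in the other tissues, as most genes tested differed between these tissues. Averaged over the 8 genotypes, 9 of 10 members were higher in tail bud than in the remaining embryo, by 0.46 to 0.69 log2 units, and Alas2 stood at 0.49 ± 0.22 (edgeR adjusted p = 0.0543). Of all genes tested, 65.8% passed in that contrast. In heart against tail bud 9 of 10 were lower, by 0.47 to 0.64, and Epor stood at −0.23 ± 0.16 (adjusted p = 0.175), while 87.5% of all genes passed. The second count is near its background. The count for tail bud against remaining embryo was 5 of 10 with the replicate number as a block and 1 of 10 in the 9 Wild-type libraries alone, so neither contrast is read as a result about the members.

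Epor was the 1 member that differed between heart and the remaining embryo. It was 1.37-fold higher in heart (0.45 ± 0.17, edgeR adjusted p = 0.0133), and the other 9 lay between −0.08 and 0.06, while 87.4% of all genes passed. In the Wild-type libraries alone Epor stood at 0.11 (adjusted p = 0.692), which ends that call. Megakaryocyte markers were higher in heart than in the remaining embryo for 7 of 8 genes and endothelial markers for 7 of 8. Their part in the difference was not tested.

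Compared as levels with Wild-type, no member passed in any of the 7 mutant genotypes in tail bud or heart by edgeR or DESeq2. An unadjusted p under 0.05 was found in 2 of 70 tests in each of these tissues, and some groups did not overlap. Of all genes tested in tail bud, 10.4% passed in Full-KO, 5.57% in Delta_17_18_92, 8.31% in Delta_17_18, 1.77% in Delta_17, 0.129% in Delta_18, 1.03% in Delta_19 and 0.359% in Delta_92. In heart the shares were 3.91% in Full-KO, 1.89% in Delta_17_18_92, 1.12% in Delta_17_18, 0.555% in Delta_17, 0.0418% in Delta_18, 0.406% in Delta_19 and 0.0716% in Delta_92.

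Among the levels, embryonic globins of the Full-KO and Delta_17_18_92 tail buds lay low without passing the test. Hbb-bh1 had 222.7, 845.7 and 926.4 CPM in Full-KO tail buds, against 1101, 1598 and 1854 CPM in Wild-type tail buds. All 3 Full-KO libraries lay below all 3 Wild-type libraries. The difference was −1.20 ± 0.64 log2 units (edgeR adjusted p = 0.247), which did not exceed the spread between libraries by this test. Hbb-y had 269.7, 1168 and 1341 CPM in Full-KO and 1212, 1972 and 1682 CPM in Wild-type tail buds, and these ranges overlapped. In Delta_17_18_92 tail buds Hbb-bh1 ran from 406.4 to 875.9 CPM, Hbb-y from 528.4 to 1016 CPM and Hba-x from 473.9 to 986.9 CPM. All 3 lay below every Wild-type library, where Hba-x ran from 1035 to 1716 CPM, with adjusted p from 0.285 to 0.507. These 3 genes rise together with the blood index, so they are not separate observations. The share of all genes that separate the same groups was not counted, so the separation is a description only.

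In the remaining embryo, where blood content was most even, the adult globin Hbb-bs was higher in Full-KO and Delta_17_18. It had 5.08, 5.89 and 5.97 CPM in Full-KO, 4.01, 7.42 and 3.93 CPM in Delta_17_18, and 2.14, 2.75 and 2.52 CPM in Wild-type. Every library of both mutants lay above every Wild-type library, a description without the share of all genes that separate so. The increase was 2.27-fold in Full-KO (1.18 ± 0.25, edgeR adjusted p = 0.00451) and 2.1-fold in Delta_17_18 (1.07 ± 0.25, adjusted p = 0.0159).

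Those were the 2 calls among 70 tests in the remaining embryo. The Delta_17_18 call was lost without its replicate 2 (0.68, adjusted p = 0.13), without Wild-type replicate 1 (adjusted p = 0.0865) and without Wild-type replicate 3 (adjusted p = 0.0566). The count of calls was 1 without Wild-type replicate 1 or Delta_17_18 replicate 2, and 5 without Delta_19 replicate 3. In fits of only the 2 groups compared it was 7. Of all genes, 6.66% passed in Full-KO, 5.62% in Delta_17_18_92, 4.44% in Delta_17_18, 1.56% in Delta_17, 0.36% in Delta_18, 1.88% in Delta_19 and 0.588% in Delta_92.

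A test of any difference among the 8 genotypes called members in the remaining embryo. In the remaining embryo 5 of 10 members passed: Klf1 (edgeR adjusted p = 0.00665), Hbb-bs (0.0204), Epor (0.027), Hbb-bh1 (0.0352) and Gata1 (0.0412), where 18.4% of all genes passed. In tail bud 0 of 10 passed, with 12.2% of all genes, and in heart 0 of 10, with 11.3%. The count of 5 was 8 without Delta_19 replicate 3, and 2 without Wild-type replicate 1, Full-KO replicate 2 or 3, or Delta_17_18_92 replicate 1 or 2. It was 3 without Full-KO replicate 1, Delta_17_18 replicate 3, Delta_17 replicate 3, Delta_18 replicate 1 or 2, Delta_19 replicate 1, or Delta_92 replicate 2 or 3, and 10 with DESeq2. Without a filter on low counts, all 10 members passed in heart and in the remaining embryo, and the genotype comparisons called 53 and 48 of 70. In those fits the prior degrees of freedom were infinite, and the quasi-dispersion of Hbb-y in heart was 0.336, against 57.7 with the filter.

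At equal blood index the adult β-globins were higher in Full-KO. Hbb-bs was 2.55-fold higher in the remaining embryo (1.35 ± 0.16, edgeR adjusted p = 1.02e-06) and 2.4-fold higher in heart (1.26 ± 0.21, adjusted p = 0.000463). In tail bud it stood at 0.70 ± 0.26 (adjusted p = 0.0789). Hbb-bs had 4.49, 3.61 and 3.48 CPM in Full-KO hearts, against 1.57, 0.996 and 3.35 CPM in Wild-type hearts, and 1.62, 6.24 and 6.67 CPM in Full-KO tail buds, against 3.82, 4.31 and 5.08 CPM in Wild-type tail buds. The heart groups did not overlap, and the tail bud groups did.

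The near-identical Hbb-bt moved the same way in Full-KO. At equal index it was higher by 1.57 ± 0.26 log2 units in the remaining embryo (edgeR adjusted p = 0.00012), by 1.38 ± 0.39 in heart (0.0388) and by 1.28 ± 0.31 in tail bud (0.00931). Its heart call was lost without any single library among 5 of the 6 compared, with the highest adjusted p of 0.219 without Wild-type replicate 3. Its tail bud call was lost without Full-KO replicate 3 (adjusted p = 0.108).

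The 2 other alleles that lack miR-17, miR-20a and miR-18a together shared the Hbb-bs increase in the remaining embryo. At equal index it was 1.19 ± 0.21 in Delta_17_18_92 (edgeR adjusted p = 0.000651) and 0.80 ± 0.17 in Delta_17_18 (0.00455). Delta_17 stood at 0.57 ± 0.18 (0.12), and Delta_18, Delta_19 and Delta_92 between 0.20 and 0.23 (adjusted p from 0.714 to 0.898). No test compared Delta_17 with Delta_17_18. Hbb-bs had 3.76 and 3.92 CPM in the 2 Delta_17_18_92 libraries, both above the 3 Wild-type values, but did not pass as levels by edgeR. The blood index ran from 2.26 to 2.35 in these 2 libraries and from 2.64 to 3.12 in Wild-type. Those ranges do not meet, so the Delta_17_18_92 value at equal index rests on extending the fitted slope. The Delta_17_18 call was lost without Wild-type replicate 2 (adjusted p = 0.0958) and without Delta_17_18 replicate 1 (0.0868). In heart, Delta_17_18_92 stood at 0.56 ± 0.21 (0.194) and Delta_17_18 at −0.16 ± 0.23 (0.814).

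With the embryo's Y-linked reads as a further term, an alternative added after seeing the data, the Full-KO increase of Hbb-bs was 1.32 in the remaining embryo (edgeR adjusted p = 5.08e-06) and 1.27 in heart (0.000688). In place of the index, the summed counts of Hbb-bh1 and Hbb-y, also added after seeing the data, gave 1.24 in the remaining embryo (7.21e-06), 1.32 in heart (0.00193) and 0.90 in tail bud (0.00739).

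At equal index, 3 of 70 member tests passed in the remaining embryo, 1 in heart and 5 in tail bud. The counts were 6 in the remaining embryo without Full-KO replicate 1, 2 in heart without Delta_17_18 replicate 3, and 8 in tail bud without Wild-type replicate 1 or 2. With an index of membrane genes only, 5 passed in the remaining embryo. In tail bud, 12.8% of all genes passed in Full-KO, 9.98% in Delta_17_18_92, 6.34% in Delta_17_18, 1.83% in Delta_17, 0.147% in Delta_18, 1.16% in Delta_19 and 0.5% in Delta_92. In heart it was 4.01% in Full-KO, 2.1% in Delta_17_18_92, 1.3% in Delta_17_18, 0.597% in Delta_17, 0.0239% in Delta_18, 0.221% in Delta_19 and 0.0597% in Delta_92. For the remaining embryo it was 6.48% in Full-KO, 4.4% in Delta_17_18_92, 3.36% in Delta_17_18, 1.48% in Delta_17, 0.171% in Delta_18, 1.35% in Delta_19 and 0.548% in Delta_92. Full-KO thus had 1 of 10 members called in each tissue, which is near the background of 12.8% in tail bud and 6.48% in the remaining embryo.

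At equal index the test of any difference among the 8 genotypes, added after seeing the data, passed for few members. Hba-x (edgeR adjusted p = 0.037) and Gata1 (0.00524) passed in tail bud, Hba-x (0.0411) and Hbb-bs (0.000142) in heart and Hbb-bs (3.85e-06) in the remaining embryo. Of all genes, the test called 14.6% for tail bud, 10.4% for heart and 13.8% for the remaining embryo, so these counts of 2, 2 and 1 of 10 are near the background. The Hba-x call was lost with an index of membrane genes only, at 0.209 in tail bud and 0.169 in heart. In tail bud it was also lost on leaving out 14 of the 24 libraries 1 at a time, namely any of Delta_17, Delta_92 or Delta_17_18, Full-KO replicate 1 or 3, Delta_18 replicate 2, or Delta_19 replicate 1 or 3. In heart it was lost on leaving out 15 of the 24, namely any of Delta_92 or Delta_17_18_92, Wild-type replicate 1 or 2, Full-KO replicate 1 or 3, Delta_17 replicate 3, Delta_18 replicate 1, Delta_19 replicate 2, or Delta_17_18 replicate 1 or 2. The count was 5 in tail bud without Wild-type replicate 3 and 4 in heart without Delta_18 replicate 3. In the remaining embryo it was 4 without Delta_92 replicate 1 or 2, 3 without Full-KO replicate 1 or Delta_17_18_92 replicate 2, 2 without Delta_19 replicate 2 or Delta_17_18_92 replicate 1, and 5 with DESeq2. The Hbb-bs and Gata1 calls of this any-genotype test held without any single library.

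**Figure D3:**
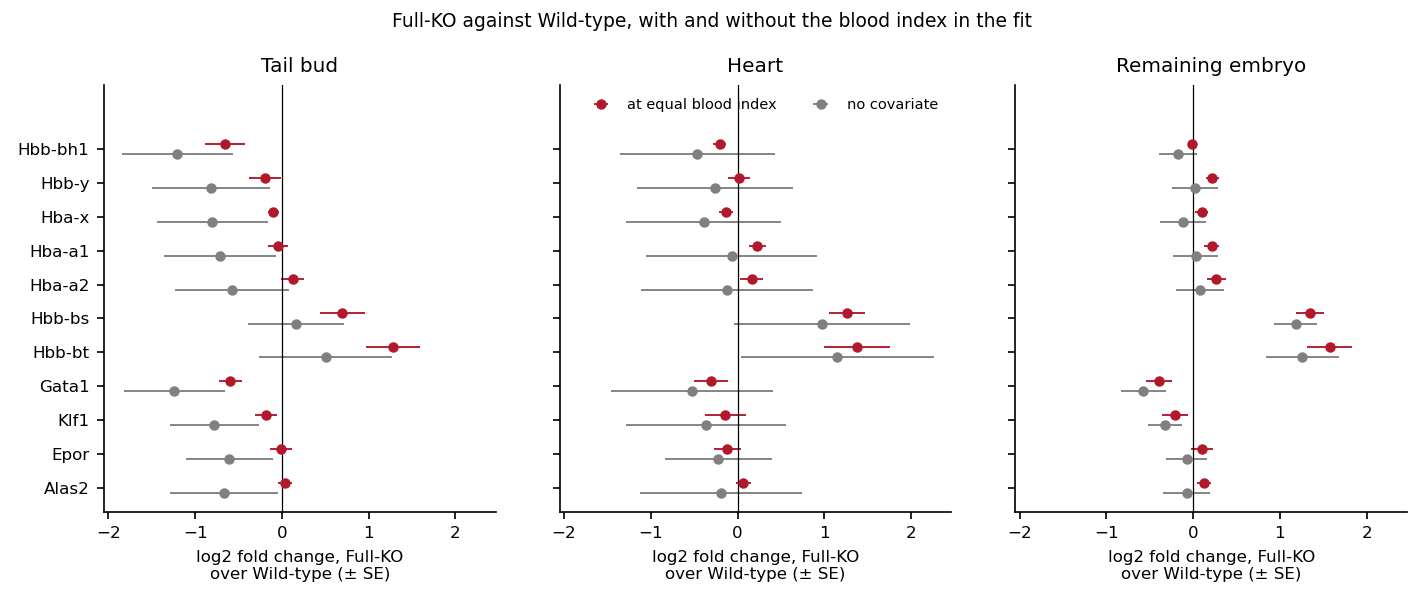
Log2 fold change of each member in Full-KO against Wild-type, as levels and at equal blood index, with SE, by tissue. Hbb-bs and Hbb-bt lie at or above 0.70 at equal index in all 3 tissues, while the α-like globins, Alas2 and Epor lie within 0.27 of 0.

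The share of adult β-globin among β-like globin counts compares genes of 1 locus within a library. In bulk RNA a change within the red cells and a change in the mix of primitive and definitive red cells cannot be told apart. Hbb-bs and Hbb-bt together made up 0.415%, 0.427% and 0.476% of β-like globin counts in Full-KO remaining embryo, against 0.189%, 0.174% and 0.188% in Wild-type. In Full-KO hearts the share was 0.591%, 0.482% and 0.527%, against 0.306%, 0.137% and 0.211% in Wild-type hearts. In Full-KO tail buds it was 0.422%, 0.419% and 0.443%, against 0.213%, 0.179% and 0.174% in Wild-type tail buds. In all 3 tissues every Full-KO library lay above every Wild-type library, and the ratio of means was 2.39 in the remaining embryo, 2.45 in heart and 2.27 in tail bud. Whether same-numbered libraries of the 3 tissues came from 1 embryo is not given, and their Y-linked reads agreed in all 24 sets. The 3 tissues are therefore not counted as independent repeats of this difference.

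The counting intervals of Full-KO and Wild-type did not meet in the remaining embryo or in tail bud. The 95% Wilson intervals in the remaining embryo ran, over the 3 Full-KO libraries, from 0.353% to 0.548% and those of Wild-type from 0.142% to 0.241%. In tail bud they ran from 0.316% to 0.564% in Full-KO and from 0.142% to 0.254% in Wild-type. In heart, where Wild-type libraries held 26 to 71 adult β-globin counts, they ran from 0.396% to 0.734% in Full-KO and from 0.0932% to 0.417% in Wild-type, and so met. The intervals cover counting error only. Among libraries with Y-linked reads, the share was 0.415% to 0.476% in Full-KO and 0.188% to 0.189% in the 2 Wild-type libraries of the remaining embryo.

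The other alleles without miR-17 and miR-20a lay between Full-KO and Wild-type in the remaining embryo and tail bud. In the remaining embryo the share averaged 0.345% in Delta_17_18_92, 0.287% in Delta_17_18, 0.274% in Delta_17 and 0.184% in Wild-type. Every library of these alleles lay above every Wild-type library there and in tail bud, where the averages were 0.34%, 0.275%, 0.308% and 0.188% in the same order. Delta_18 averaged 0.208% in the remaining embryo, also without overlap with Wild-type, and Delta_19 and Delta_92 averaged 0.197% and 0.192% and overlapped it. In heart the share averaged 0.318% in Delta_17_18_92, 0.217% in Delta_17_18, 0.305% in Delta_17 and 0.218% in Wild-type, and the values of all 6 alleles other than Full-KO overlapped Wild-type. No test was made on the shares, which use the same counts as the Hbb-bs fits and so are no separate evidence for them.

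**Figure D4:**
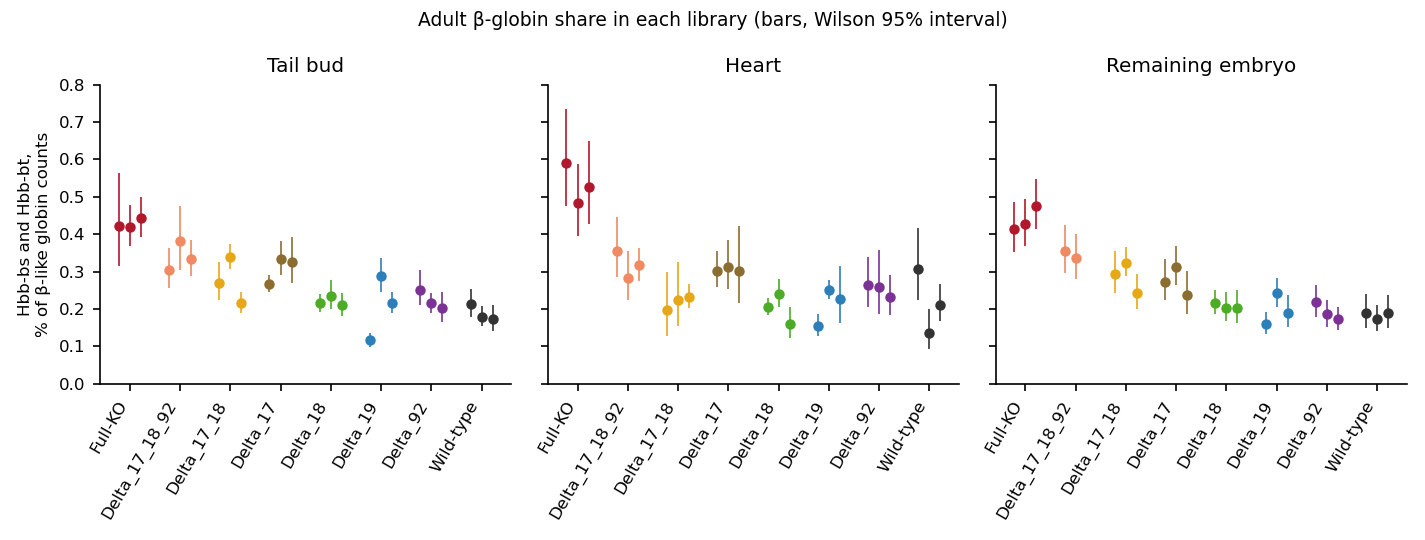
Share of adult β-globin (Hbb-bs and Hbb-bt) in β-like globin counts, in percent, by genotype and tissue, each point 1 library with its 95% Wilson interval. The 9 Full-KO libraries sit between 0.415% and 0.591%, and the 9 Wild-type libraries between 0.137% and 0.306%. Each 9 are 3 replicate numbers in 3 tissues, which may share embryos.

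The adult share of the α-like globins varied less. Adult α-globins, Hba-a1 and Hba-a2, made up 4.05% to 5.66% of α-like counts over all 71 libraries, a 1.4-fold range. In the remaining embryo the share was 4.91%, 5.58% and 5.59% in Full-KO, against 4.92%, 4.59% and 5.14% in Wild-type, and these overlapped. In hearts it was 5.36%, 5.66% and 5.38% in Full-KO, against 4.31%, 4.19% and 4.70% in Wild-type, with no overlap. In tail buds it was 5.08%, 5.14% and 5.13% in Full-KO, against 4.46%, 4.41% and 5.60% in Wild-type, and these overlapped. The value of 5.60% is that of Wild-type replicate 3, the library that stood apart.

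The promoters of 1 embryonic and both adult β-globins are shown because these genes share a locus. At equal index in Full-KO, Hbb-bs and Hbb-bt gave calls and Hbb-y gave none, but no test compared their changes with each other. Each run holds the 250 bases before the gene start from RefSeq on GRCm38.p6, minus strand of chromosome 7, at chr7:103853208-103853457 for Hbb-y, chr7:103827929-103828178 for Hbb-bs and chr7:103813924-103814173 for Hbb-bt. Capitals mark 3 motifs on either strand: the GATA factor motif GATAA, then the Klf motif CACCC, and the box named CCAAT.
Hbb-y: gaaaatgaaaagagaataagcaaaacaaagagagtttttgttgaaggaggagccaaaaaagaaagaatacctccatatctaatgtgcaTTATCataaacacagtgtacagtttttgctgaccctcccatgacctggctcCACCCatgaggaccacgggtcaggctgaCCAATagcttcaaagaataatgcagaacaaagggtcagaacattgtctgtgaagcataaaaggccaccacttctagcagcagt
Hbb-bs: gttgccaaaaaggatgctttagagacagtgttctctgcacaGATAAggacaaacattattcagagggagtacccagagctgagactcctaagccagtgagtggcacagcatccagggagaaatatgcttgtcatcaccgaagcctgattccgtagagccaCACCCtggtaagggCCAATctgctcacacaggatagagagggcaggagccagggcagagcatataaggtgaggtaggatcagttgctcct
Hbb-bt: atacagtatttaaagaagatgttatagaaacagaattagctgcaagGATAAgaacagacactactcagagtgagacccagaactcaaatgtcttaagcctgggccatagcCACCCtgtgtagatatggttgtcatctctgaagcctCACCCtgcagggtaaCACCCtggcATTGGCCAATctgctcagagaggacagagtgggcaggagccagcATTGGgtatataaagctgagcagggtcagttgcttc
All 3 motifs occurred in all 3 promoters. GATAA occurred in 22.6% of 32851 promoters of this length, CACCC in 52.0% and CCAAT in 33.8%, so a match alone describes many genes.

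Gata1, the erythroid factor, was lower at equal blood index in tail buds of 5 mutants, of which only the Full-KO call held without any single library. Gata1 had 1.90, 4.30 and 5.64 CPM in Full-KO tail buds, against 8.91, 10.6 and 8.53 CPM in Wild-type tail buds. At equal index it fell by 0.60 ± 0.13 log2 units in Full-KO (edgeR adjusted p = 0.00436). It fell by 0.56 ± 0.13 in Delta_17_18_92 (0.00834), by 0.48 ± 0.12 in Delta_17_18 (0.017), by 0.51 ± 0.12 in Delta_17 (0.0232) and by 0.55 ± 0.12 in Delta_19 (0.0164). The blood index ran from 1.88 to 2.68 in Delta_17_18_92 tail buds and from 2.69 to 3.53 in Wild-type tail buds. Those ranges do not meet, so the Delta_17_18_92 fall rests on extending the fitted slope.

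Delta_18 stood at −0.27 ± 0.12 (0.493) and Delta_92 at −0.25 ± 0.12 (0.389). All 7 comparisons share the 3 Wild-type libraries. With each of the 6 compared libraries left out in turn, the Full-KO call held in 6 of 6 fits and the Delta_17_18_92 call in 5. The Delta_17_18 and Delta_19 calls each held in 3 of 6, and the Delta_17 call in 2 of 6, with edgeR adjusted p up to 0.264. Without Wild-type replicate 3, the library that stood apart, Full-KO stood at −0.46 (adjusted p = 0.0265) and Delta_17_18_92 at −0.41 (0.0468), and Delta_17_18, Delta_17 and Delta_19 had adjusted p of 0.0609, 0.0889 and 0.0522. With Hbb-bh1 and Hbb-y as the index none of the 5 calls held, with adjusted p from 0.0772 in Full-KO to 0.415 in Delta_17. In Full-KO, Gata1 stood at −0.30 ± 0.19 in heart (0.438) and −0.40 ± 0.15 in the remaining embryo (0.124).

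Markers of other cells gave 3 calls at equal index in the same Full-KO tail buds, where 12.8% of all genes passed. These calls are not read as a result about those cells. The endothelial marker Cldn5 fell by 0.43 ± 0.12 (edgeR adjusted p = 0.0235), 1 of 8 tested, with summed endothelial markers of 380 to 476 CPM in Full-KO and 420 to 460 CPM in Wild-type. The cardiomyocyte marker Myl4 fell by 1.19 ± 0.39 (0.0483), 1 of 7 tested, with sums of 21.6 to 27.1 CPM in Full-KO and 23.9 to 37.9 CPM in Wild-type. The neural marker Tubb3 rose by 0.54 ± 0.14 (0.0136), 1 of 6 tested, with sums of 67.5 to 76.2 CPM in Full-KO and 55.4 to 66.6 CPM in Wild-type. Megakaryocyte markers, from cells that also use GATA1, summed to 6.54 to 12.6 CPM in Full-KO and 11.4 to 17.7 CPM in Wild-type, with 0 of 6 tested genes called. Macrophage markers summed to 3.14 to 5.36 CPM in Full-KO and 4.2 to 5.34 CPM in Wild-type, and yolk sac markers to 6.9 to 15.2 CPM in Full-KO and 7.65 to 9.02 CPM in Wild-type, with 0 calls in both lists. The yolk sac gene Apoa4 was at 0 in these libraries. The macrophage genes Adgre1, Cx3cr1, Tyrobp and Lyz2 and the cardiomyocyte gene Nppa had at most 3 counts in any of them. Their part in the Gata1 result was not tested.

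Klf1, Epor and the haem gene Alas2 passed no test in Full-KO at equal index. At equal index in Full-KO, Klf1 stood between −0.21 and −0.14, Alas2 between 0.04 and 0.13 and Epor between −0.12 and 0.11 in the 3 tissues, with the lowest adjusted p at 0.372 for Klf1 in tail bud. Hba-x stood between −0.13 and 0.10. Klf1 had 3.95, 5.29 and 4.53 CPM in Full-KO remaining embryo and 5.65, 6.82 and 4.69 CPM in Wild-type, and Alas2 had 27.2, 32.5 and 34.7 CPM in Full-KO and 26.3, 43.3 and 29.4 CPM in Wild-type. Both pairs of groups overlapped.

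No member's genotype effect differed between tissues by the test of that difference. Over 210 tests, 7 mutants by 3 pairs of tissues by 10 genes, 0 passed and 0 had an unadjusted p under 0.05 in edgeR, the 1 tool run on it, while 0.0676% of all such tests passed. That fit compared levels without the blood index, and the SE for Hbb-bs in Full-KO ran from 0.886 to 0.997. It therefore cannot decide whether the effects at equal index differ between tissues, which was not tested. The presence of an Hbb-bs call in 1 tissue and its absence in another is not a shown difference.

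The ratio of the 2 embryonic β-globins was alike in libraries that share a genotype and number. Hbb-bh1 over Hbb-y ran from 0.663 to 0.917 in 70 libraries, and in same-numbered heart and remaining embryo libraries of a genotype it differed by a median of 0.019 and at most 0.053 (n = 23, Pearson r 0.958, a description). Between tail bud and heart the correlation was 0.712 with all 24 pairs and 0.923 without Wild-type number 3, where tail bud had 1.10, heart 0.813 and remaining embryo 0.838. The blood index of the same pairs was less alike, with 0.606 between heart and remaining embryo and 0.33 between tail bud and heart. The ratio in the remaining embryo was 0.80, 0.711 and 0.691 in Full-KO and 0.917, 0.783 and 0.838 in Wild-type, and the groups overlapped.

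**Figure D5:**
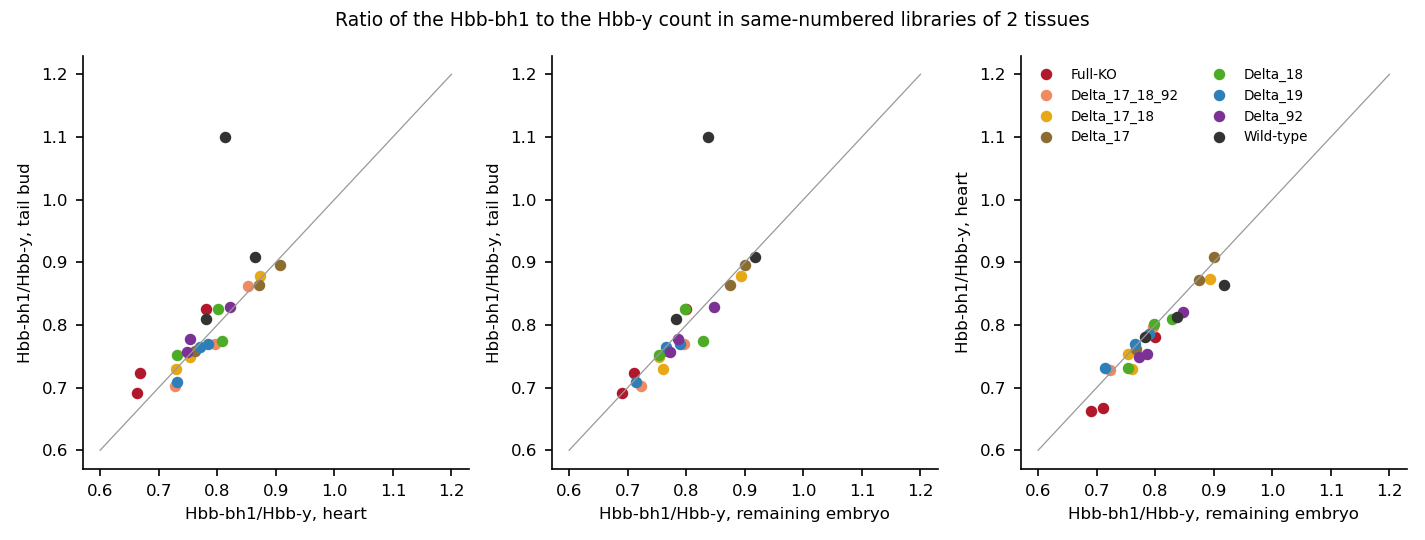
Hbb-bh1 over Hbb-y counts in libraries of the same genotype and number across tissues, each point 1 pair. Points lie near the line of equal ratio except those of the tail bud library of Wild-type number 3, which stands at 1.10.

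Other genes of red cell formation gave few calls in Full-KO, where 10.4% of all genes passed in tail bud and 6.66% in the remaining embryo. In the tail bud, as levels, 2 of 10 haem synthesis genes fell, the porphobilinogen synthase gene Alad by 0.45 ± 0.14 (edgeR adjusted p = 0.0443) and the glycine carrier Slc25a38 by 0.33 ± 0.08 (0.0114), with a list median of −0.45. The median over all genes tested was −0.01. None of 15 red cell membrane genes (median −0.67), 14 erythroid transcription factors (median −0.05) or 11 maturation genes (median −0.47) passed there. In the remaining embryo 0 of 10 haem genes, 0 of 15 membrane genes and 0 of 14 transcription factors passed, and 1 of 11 maturation genes fell, Ubac1 by 0.21 ± 0.05 (0.00577).

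Genes of erythropoietin signalling and iron handling, which other cells also use, gave calls in both directions in Full-KO, where 10.4% of all genes passed in tail bud and 6.66% in the remaining embryo. Of 11 signalling genes, 2 rose in Full-KO tail buds, the stem cell factor receptor Kit by 0.45 ± 0.06 (edgeR adjusted p = 3.33e-05) and the cytokine inhibitor Socs3 by 0.52 ± 0.13 (0.0109). Both also rose in the remaining embryo, by 0.33 ± 0.07 (0.00503) and 0.40 ± 0.09 (0.00491), where 2 others fell, among them Stat5b by 0.37 ± 0.08 (0.00131). Of 10 iron genes in tail bud, the iron exporter Slc40a1 rose by 0.64 ± 0.12 (0.00146) and Ireb2 by 0.20 ± 0.05 (0.00787), and the iron importer Slc11a2 fell by 0.25 ± 0.05 (0.00276). Slc40a1 also rose in tail buds of Delta_17_18_92 by 0.93 ± 0.12 (3.18e-05), of Delta_17_18 by 1.07 ± 0.12 (8.57e-06) and of Delta_17 by 0.99 ± 0.12 (1.89e-05).

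In Full-KO hearts the water channel gene Aqp1 of the membrane list rose by 0.58 ± 0.12 (edgeR adjusted p = 0.00658) and the repressor gene Zbtb7a by 0.36 ± 0.09 (0.0217). The endothelial marker Pecam1 rose there by 0.23 ± 0.07 (0.04), 1 of 8 endothelial genes. Haem, signalling, iron and maturation genes gave no call in that tissue, where 3.91% of all genes passed in Full-KO.

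Markers of other cells gave 2 calls beside the adult globin increase in the remaining embryo, where 6.66% of all genes passed in Full-KO. There the endothelial marker Pecam1 rose in Full-KO by 0.29 ± 0.06 (edgeR adjusted p = 0.00329) and the tail bud marker Nkx1-2 by 0.52 ± 0.15 (0.0359). Summed tail bud markers were 31.3 to 42.8 CPM in Full-KO and 28.6 to 32.1 CPM in Wild-type, with 1 of 7 tested genes called. Summed endothelial markers were 427 to 470 CPM in Full-KO and 422 to 437 CPM in Wild-type. Summed megakaryocyte markers were 9.15 to 12.6 CPM in Full-KO and 6.92 to 11.2 CPM in Wild-type remaining embryo, with 0 of 6 tested genes called. Summed macrophage markers were 6.4 to 7.25 CPM in Full-KO and 7.04 to 8.72 CPM in Wild-type, with 0 of 4 tested genes called. No marker of these lists was at 0 in these libraries, while the macrophage genes Adgre1 and Tyrobp and the tail bud gene Msgn1 had at most 3 counts in any of them. Yolk sac markers were 45.3 to 63.8 CPM in Full-KO and 55.2 to 508 CPM in Wild-type, with 0 of 8 called. Their part in the globin results was not tested.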

How the data were processed

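RNA of 71 libraries from 8 genotypes and 3 tissues was sequenced as single reads of 50 bases, per the labels' protocols. The authors deposited raw counts of reads for 37620 Ensembl gene IDs. The submitters' processing notes name the aligner STAR 2.3.0, featureCounts from Subread 1.4.2, SAMtools 0.1.14 and the mm9 and NCBIM37 builds. Annotation release, strandedness and the treatment of multi-mapping reads are not given in the sources used here. Groups and replicate numbers come from the sample titles, and the series text calls the libraries biological triplicates. Symbols came from GENCODE on GRCm38 by gene ID and matched 32897 IDs. The 70 replicate pairs within groups differed by 2.66 to 145.39 in chi-square per degree of freedom, so each library was counted as its own sample.

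From these counts, each tissue was fitted with edgeR 4.0.16 in R 4.3.3 (TMM factors, low counts filtered with filterByExpr by genotype, quasi-likelihood test with the robust option, Benjamini-Hochberg adjustment over all genes tested, threshold 0.05). The fits held 17009 genes for tail bud, 16750 for heart and 17512 for the remaining embryo. All genotype comparisons of a tissue share its Wild-type libraries and 1 estimate of the spread. A second fit added the blood index, the mean log2 CPM (prior count 2) of 12 of 14 listed red cell genes. Of the other 2, Ahsp matched no ID by symbol and Icam4 had no counts. A genotype could itself change the index, so this fit compares levels at equal index only. Where the index ranges of 2 groups do not meet, that comparison rests on extending the fitted slope. Tissue contrasts, averaged over genotypes with equal weight, and differences between tissues used all 71 libraries and 18875 genes. Changes are log2 fold changes ± SE. CPM were computed here with the TMM factors of the 71 libraries, and CPM per kb uses the exon length in GENCODE. Shares use raw counts with Wilson intervals at 95% and no test. Where groups are said not to overlap, the share of all genes that separate in this way was not counted. The fits were tested on simulated data.

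The 10 genes were given by name, and they and the other lists were chosen with earlier results of these data known. From each list up to 3 genes per comparison past the threshold were named, by largest change. Those of the lists for Full-KO against Wild-type, and Slc40a1 in further genotypes, are given here. Some of the genes most like the members are not reported here. DESeq2 1.42.0, other normalizations and filters, another index, a replicate block and each library left out in turn were alternatives.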

Additional observations from a re-analysis of the deposited data

How the results depend on the processing

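Counts of member calls over 70 tests per tissue, 10 members per tissue contrast and 10 per any-genotype test were recomputed under each alternative. Without a filter on low counts, genotype calls were 53 in heart and 48 in the remaining embryo, calls at equal index 4 in heart, the any-genotype test called 10 in heart and 10 in the remaining embryo, at equal index 5 in heart and 2 in the remaining embryo, and tail bud against remaining embryo called 5. The heart and remaining embryo fits then had infinite prior degrees of freedom, which replace each gene's own variance by the trend. With DESeq2, the any-genotype test called 1 in tail bud and 10 in the remaining embryo, at equal index 5 in the remaining embryo, and calls at equal index were 2 in heart. With the membrane gene index, calls at equal index were 5 in the remaining embryo, and the any-genotype test at equal index called 1 for tail bud, 1 for heart and 2 for the remaining embryo. With only the 2 groups compared, genotype calls were 7 in the remaining embryo. With only the 9 Wild-type libraries, heart against remaining embryo called 0 and tail bud against remaining embryo 1. Apart from the no-filter fits, the cause of these changes was not tested.

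With single libraries left out, genotype calls ran from 0 to 0 in tail bud and heart and from 1 to 5 in the remaining embryo. Calls at equal index ran from 4 to 8 in tail bud, 1 to 2 in heart and 2 to 6 in the remaining embryo. The any-genotype test called 0 to 1 in tail bud, 0 to 0 in heart and 2 to 8 in the remaining embryo, and at equal index 1 to 5 for tail bud, 1 to 4 for heart and 1 to 4 for the remaining embryo. Within the Wild-type libraries, calls ran from 0 to 9 for heart against remaining embryo, 0 to 5 for tail bud against remaining embryo and 3 to 10 for heart against tail bud. As levels in Full-KO tail buds, Hbb-bs ran from −0.12 without Full-KO replicate 3 to 0.55 without replicate 1 and Hbb-bt from −0.063 without replicate 3 to 0.94 without replicate 1, none past the threshold.

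Replicate numbers were not taken as pairs. The deviations of mutant and Wild-type libraries of the same number had a median correlation of 0.00 over 62 pairs, with 15 over 0.1. Between tissues of the same genotype and number the median was 0.27 over 70 pairs, with 60 over 0.1. With the replicate block, genotype calls in the remaining embryo were 4, with Gata1 at −0.96 and Klf1 at −0.70 in Delta_17_18_92 as the added calls (edgeR adjusted p = 0.0252 and 0.0494), and tail bud against remaining embryo called 5. With the block the any-genotype test at equal index called 1 in heart, where Hba-x had an adjusted p of 0.0637, and 2 in the remaining embryo. The block changed no other count of calls by over 1.5 times.

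Depth limits the adult β-globins most, since Wild-type hearts held 26 to 71 such counts and Full-KO tail bud replicate 1 held 45. The blood index rests on the same libraries as the members.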
